A study of Homo sapiens with 4 samples.

Results

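PLD4, PLEK, SLA and LAT2 are 4 of the 41507 genes in a gene-level expression table of 2 human diffuse large B-cell lymphoma (DLBCL) lines, SU-DHL-5 and Toledo. They were selected on these same measurements, as the genes with the strongest falls in both lines when cells received JQ1 instead of DMSO. The size of their falls is therefore a description, and nothing is drawn from it. JQ1 is a small molecule that blocks the bromodomains of BET proteins, which bind acetylated chromatin and help transcription proceed, and DMSO is its solvent and served as the control. The 4 samples were SU-DHL-5 cells with DMSO, SU-DHL-5 cells with JQ1 at 1 µM, Toledo cells with DMSO and Toledo cells with JQ1 at 1 µM. All were unmodified established lines of B lymphocyte type grown in the same medium, and each line stands for a single tumor. The labels of the samples give 6 h of treatment, whereas a legend of the study gives a longer time. Each sample had 2 libraries, which are not described as separate cultures. They were averaged, so that n = 1 per condition in each line. No test within a line was possible and none across both lines was made, and the spread between libraries may be technical.

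The products of the 4 genes work in different places of a leukocyte. PLD4 is a member of the phospholipase D family by sequence, but it acts in endosomes and lysosomes as an exonuclease of single-stranded nucleic acids and so limits what Toll-like receptors sense there. PLEK encodes pleckstrin, a cytoplasmic protein with pleckstrin homology domains that is best known as the main protein kinase C substrate of platelets. SLA encodes the Src-like adaptor protein (SLAP), which resembles a Src family kinase without its kinase domain and, with the ubiquitin ligase CBL, lowers antigen receptor levels. LAT2, also called NTAL or LAB, is a transmembrane adaptor that becomes phosphorylated after antigen or Fc receptor engagement and recruits GRB2.

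The genes lie on different chromosomes, and the position of SLA is given with its values. On GRCh38, PLD4 spans positions 104924850 to 104937649 of chromosome 14 and PLEK spans 68365190 to 68397453 of chromosome 2, both on the plus strand. LAT2 spans 74209757 to 74229834 of chromosome 7 on the plus strand. All 4 are annotated as protein coding. The table held 3 transcripts of PLD4, 1 of PLEK, 5 of SLA and 4 of LAT2.

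The promoters of 2 of the 4 genes, PLD4 and PLEK, could be read from RefSeq (GRCh38.p14). They are shown because these genes fell together from opposite starting levels in the 2 lines. Each sequence runs 5′ to 3′ on the plus strand, from 250 bases before the annotated start to 50 bases after it. Capitals mark the E-box CAGCTG, the ETS core GGAAGT and the longer PU.1-type word GAGGAAGT, which contains the ETS core.
PLD4, chr14:104924629-104924928: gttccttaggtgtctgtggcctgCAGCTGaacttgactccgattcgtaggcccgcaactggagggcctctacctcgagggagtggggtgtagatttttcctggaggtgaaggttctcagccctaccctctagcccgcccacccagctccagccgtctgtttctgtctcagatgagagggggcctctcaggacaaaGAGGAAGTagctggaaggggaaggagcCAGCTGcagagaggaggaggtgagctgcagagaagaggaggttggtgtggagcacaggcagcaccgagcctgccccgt
PLEK, chr2:68365032-68365331: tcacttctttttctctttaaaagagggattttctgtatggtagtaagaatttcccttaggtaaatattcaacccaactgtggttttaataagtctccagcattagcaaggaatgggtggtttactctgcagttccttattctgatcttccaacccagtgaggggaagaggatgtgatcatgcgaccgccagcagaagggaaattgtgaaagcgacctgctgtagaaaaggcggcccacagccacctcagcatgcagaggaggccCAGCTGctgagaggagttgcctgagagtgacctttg

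Both windows held CAGCTG, at positions -227 and -28 from the start in PLD4 and at position 15 in PLEK. This word was present in 17.9% of 35116 promoter windows of the same length, searched on both strands. GAGGAAGT was at -55 in PLD4 only, with its ETS core at -53, and the words were present in 2.59% and 22.8% of all windows. PLD4 also held the GC box GGGCGG on the opposite strand at -117, as did 45.0% of all windows in either orientation. Neither window held the TATA box TATAAA, which was in 11.5% of all windows, or the MYC-type E-box CACGTG, which was in 7.26%. The CCAAT box and the octamer ATGCAAAT, in 34.6% and 1.77% of windows, were also missing from both. The window of PLD4 was 60% G and C and that of PLEK 47%, against a median of 58.7% over all windows. The words were chosen with both sequences in view, and a match is a description and not a binding site. The annotated starts of these windows lie 29 and 92 bases after the first base of PLD4 and PLEK in the expression table.

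Levels are given in RPKM, read numbers scaled for transcript length and for the mapped reads of the library, and reads are those recovered from the RPKM values. The 8 libraries held 14617583 to 17679831 mapped reads, of which 94.8% to 95.5% lay on genes. Both lines expressed the B cell markers in every library, and the summed level of 7 of them, among which MS4A1, CD79A, CD79B, PAX5, CD22 and CD74, was 2552 to 2969 RPKM with DMSO and 2286 to 2305 RPKM with JQ1 in SU-DHL-5. In Toledo it was 2766 to 2935 RPKM with DMSO and 2672 to 2985 RPKM with JQ1. MS4A1 and CD22 were lower with JQ1 in both lines by the rule given below. Markers of other blood cells were low. The 5 platelet markers summed to at most 0.055 RPKM in any library. The 6 T cell markers summed to 1.00 to 1.24 RPKM with DMSO and 0.045 to 0.12 RPKM with JQ1 in SU-DHL-5, most of it CD3E, and to at most 0.15 RPKM in Toledo. The 7 myeloid markers summed to 1.32 to 1.35 RPKM with DMSO, mostly LYZ, and 0.22 to 0.38 RPKM with JQ1 in SU-DHL-5, and to at most 0.30 RPKM in Toledo. The 4 plasmacytoid dendritic cell markers measured summed to 0.73 to 0.96 RPKM with DMSO and 0.045 to 0.079 RPKM with JQ1 in SU-DHL-5, all of it SERPINF1, and to 1.96 to 2.12 and 0.32 to 0.56 RPKM in Toledo. The part of these low signals in the results was not tested. In bulk RNA, less RNA per cell and fewer cells of a type cannot be told apart.

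A gene was called lower or higher where the mean differed at least 2-fold, on the scale of log2(RPKM + 0.1), and both JQ1 libraries lay on the same side of both DMSO libraries. Genes entered with a mean of at least 0.5 RPKM over the 4 libraries of the line. All 4 genes entered in both lines and all were called lower, as their selection fixed. The background was 6.39% of 9738 genes lower and 1.84% higher in SU-DHL-5, and 8.29% of 10124 genes lower and 1.95% higher in Toledo. Over the 9188 genes that entered in both lines, 3.03% were lower in both and 0.729% were higher in both. The median log2 ratio of all genes was 0.015 for SU-DHL-5 and -0.074 for Toledo.

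PLD4, the endolysosomal exonuclease, had the lowest log2(RPKM + 0.1) ratio of the 4 in each line, an order that turned in SU-DHL-5 with a pseudocount of 1 RPKM, where PLD4 had -1.92 and PLEK -2.84. In SU-DHL-5 the level in the DMSO libraries was alike, at 3.45 and 3.33 RPKM, and the JQ1 libraries were at 0.124 and 0.196 RPKM. In Toledo it was 27.4 and 27.0 RPKM with DMSO and 0.655 and 1.04 RPKM with JQ1. The JQ1 libraries of Toledo, where the gene is abundant at the start, stayed below the DMSO libraries of SU-DHL-5, where it is scarce. On the log2 scale JQ1 over DMSO came to -3.74 in SU-DHL-5 and to -4.85 in Toledo. Only 6 of 9738 genes in SU-DHL-5 and 1 of 10124 in Toledo had a lower ratio. The reads behind these values were 270 with DMSO and 12 with JQ1 in SU-DHL-5, against 2251 and 67 in Toledo. Per mapped read, 4.67% of the DMSO signal was left in SU-DHL-5, with an exact binomial 95% interval of 2.38% to 8.29%. In Toledo 3.12% was left, with an interval of 2.41% to 3.97%, so the lines overlapped. These intervals, here and below, cover counting error only.

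PLEK, which encodes pleckstrin, showed the opposite starting order. Its level in SU-DHL-5 was 39.1 and 35.5 RPKM with DMSO and 4.12 and 4.56 RPKM with JQ1. In Toledo it was 3.11 and 3.56 RPKM with DMSO and 0.129 and 0.0869 RPKM with JQ1. SU-DHL-5 cells with JQ1 thus held more PLEK than Toledo cells without it. The log2 ratio was -3.07 for SU-DHL-5 and -4.05 for Toledo, and 28 and 7 genes of these lines had a lower ratio. PLEK had the deepest counts of the 4 genes in SU-DHL-5, with 3468 reads with DMSO and 384 with JQ1. The 11.6% that was left there had an interval of 10.4% to 12.9%. In Toledo 322 reads fell to 10, and the 3.25% that was left had an interval of 1.54% to 6.06%. PLEK was the only one of the 4 genes whose intervals in the 2 lines did not overlap, and with 1 sample per condition the difference between lines was not tested.

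SLA, the Src-like adaptor, spans 133036728 to 133103066 of chromosome 8 on the minus strand and started from a similar level in both lines. It was at 3.15 and 3.35 RPKM with DMSO and 0.285 and 0.322 RPKM with JQ1 in SU-DHL-5. In Toledo it was at 2.38 and 2.47 RPKM with DMSO and 0.153 and 0.0514 RPKM with JQ1. The groups were far apart in both lines, and the JQ1 libraries of Toledo rested on 9 and 3 reads. Their log2 difference of -0.74 between library 2 and library 1 was the largest between libraries of any sample for the 4 genes. The log2 ratio of JQ1 to DMSO was -3.06 for SU-DHL-5 and -3.64 for Toledo, and 30 and 24 genes had a lower ratio. From 385 reads with DMSO and 34 with JQ1, 9.28% was left in SU-DHL-5, with an interval of 6.33% to 13.2%. From 297 and 12 reads, 4.23% was left in Toledo, with an interval of 2.16% to 7.50%.

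LAT2, the transmembrane adaptor, was the most unequal between lines and the most alike in the share that was left. It was at 1.90 and 1.90 RPKM with DMSO and 0.129 and 0.164 RPKM with JQ1 in SU-DHL-5. In Toledo it was at 30.7 and 32.1 RPKM with DMSO and 2.54 and 2.30 RPKM with JQ1. As for PLEK in the reverse direction, the line with more of the RNA held more of it with JQ1 than the other line held without. The log2 ratio was -3.02 for SU-DHL-5 and -3.64 for Toledo, and 36 and 23 genes had a lower ratio. The reads were 233 with DMSO and 17 with JQ1 in SU-DHL-5, against 3986 and 294 in Toledo. The share left was 7.66% in SU-DHL-5, with an interval of 4.39% to 12.5%, and 7.72% in Toledo, with an interval of 6.84% to 8.69%. The log2 ratios differ more than these shares because 0.1 RPKM is close to the JQ1 level of SU-DHL-5. From the reads alone the log2 ratio was -3.71 for SU-DHL-5 and -3.70 for Toledo.

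**Figure D1:**
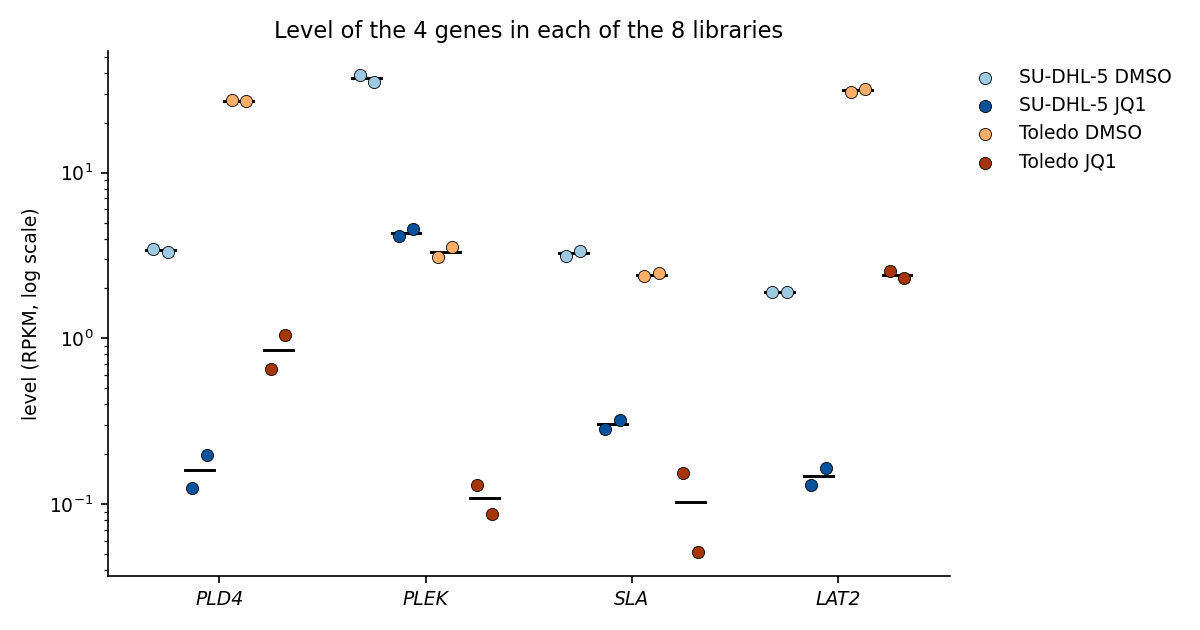
Level of PLD4, PLEK, SLA and LAT2 in RPKM on a log axis, with a point for each library and a line at the mean of the 2 libraries of a sample. Both JQ1 libraries lie below both DMSO libraries of the same line for every gene, and PLD4 and LAT2 start higher in Toledo whereas PLEK starts higher in SU-DHL-5.

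**Figure D2:**
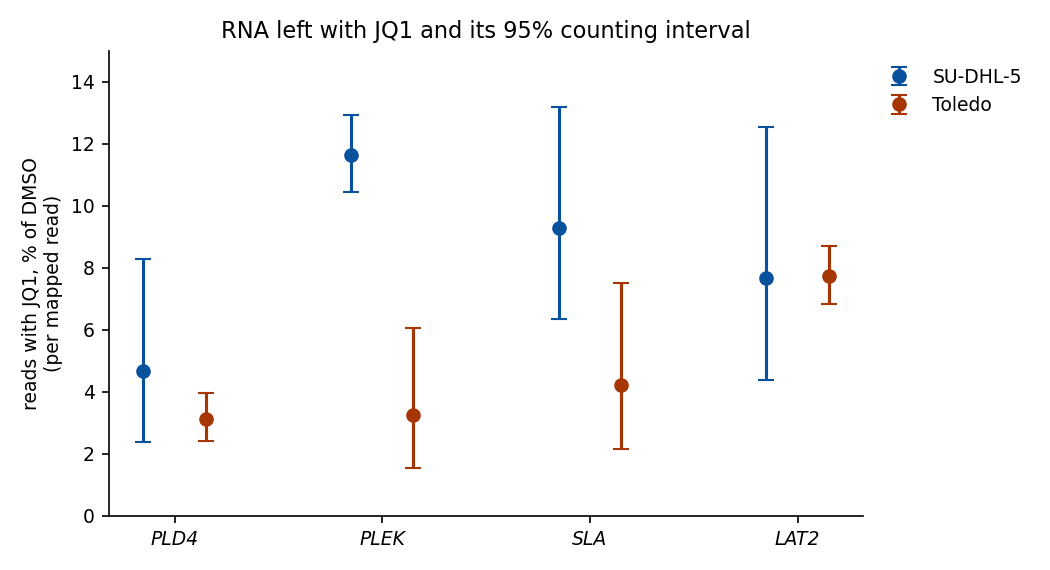
Reads with JQ1 as a percent of those with DMSO, per mapped read, in SU-DHL-5 and Toledo. Points are estimates over both libraries and bars are exact binomial 95% intervals that cover counting error only; the bars of PLEK, at 11.6% and 3.25%, do not overlap between lines.

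The starting levels with DMSO differed at least 2-fold between lines for 3 of the 4 genes. PLD4 was 8.03-fold higher in Toledo, and the log2 ratio of Toledo to SU-DHL-5 was 2.97, with a read interval of 2.82 to 3.19. LAT2 was 16.5-fold higher in Toledo, with a log2 ratio of 3.97 and an interval of 3.85 to 4.24. PLEK was instead 11.2-fold higher in SU-DHL-5, at -3.44 on the same scale (interval -3.65 to -3.32). By the same rule as above, applied to the DMSO libraries of 10388 genes, 16.6% were higher and 14% lower in Toledo. PLD4 and LAT2 were among the former and PLEK among the latter. SLA was 1.34-fold higher in SU-DHL-5, at -0.41 (interval -0.65 to -0.21), and was not called.

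With JQ1 the order between lines stayed as it was with DMSO. PLD4 was 5.29-fold and LAT2 16.5-fold higher in Toledo, while PLEK was 40.1-fold and SLA 2.97-fold higher in SU-DHL-5. The last rests on 12 reads in Toledo, and the ratio of PLEK on 10. With DMSO in SU-DHL-5, the order of the levels was PLEK, PLD4, SLA and LAT2, and the library values of PLD4 and SLA overlapped. With DMSO in Toledo it was LAT2, PLD4, PLEK and SLA, with no overlap between neighbours in that order.

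The 4 genes were at the head of a ranking by the smaller of the log2 falls in the 2 lines, which is what chose them. It was made over the 8279 genes that reached 100 reads in a library of SU-DHL-5 and in one of Toledo, and 3244 of them were below 0 in both lines. The smaller fall was 3.02 for LAT2, in the fourth place, and 2.98 for VPREB3, in the fifth. VPREB3, a B-lineage protein related to the surrogate light chain, stood at -2.98 in SU-DHL-5 and at -3.72 in Toledo on the log2 scale. Just outside were SASH3, a lymphocyte adaptor, at -2.94 and -2.89, and GRAMD1B, a cholesterol transfer protein, at -2.84 and -3.51. FERMT3, the integrin activator kindlin-3, had -2.97 and -2.83, CD72, a B cell inhibitory receptor, had -3.01 and -2.82, and APOBEC3C, a cytidine deaminase, had -2.72 and -2.71. LAT2 thus stood 0.043 above VPREB3 in this measure, and PLD4 stood 0.67 above PLEK. The ranking was made with a pseudocount of 0.1 RPKM only, and the places of the 4 genes hold for that setting. With 1 RPKM, the ratio of the line with the smaller fall was -1.92 for PLD4 and -1.97 for PLEK. It was -1.63 for SLA and -1.34 for LAT2, and the ranking of all genes was not remade with this setting.

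**Figure D3:**
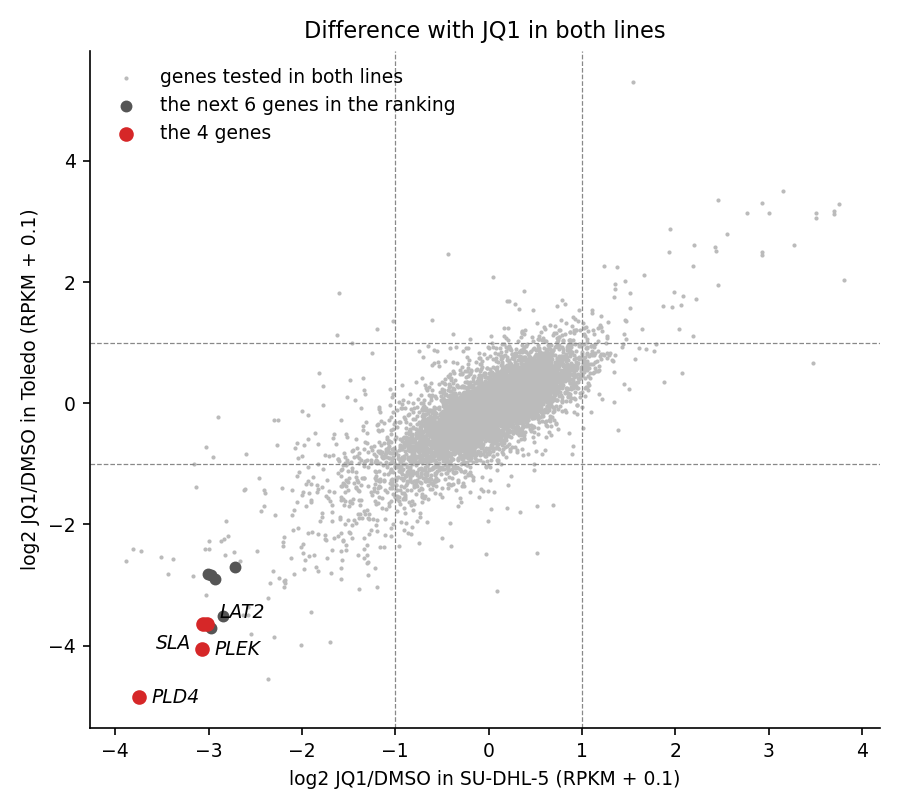
Log2 ratio of JQ1 to DMSO in SU-DHL-5 (x axis) and Toledo (y axis), on the scale of RPKM + 0.1, for the 9188 genes that entered in both lines. Dashed lines mark 2-fold. PLD4 lies alone at -3.74 and -4.85, while PLEK, SLA and LAT2 lie beside the next 6 genes of the ranking.

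The transcript table divided the reads among overlapping transcripts of a gene, and how it did so is not given in the sources used here. For PLD4, the entry PLD4_1 (exonic length 1934 bases, ending at 104933236) carried 83.0% of the reads with DMSO in SU-DHL-5 and 89.1% in Toledo. PLD4_2, which extends to 104937649, had 12 and 21 reads in the DMSO libraries of SU-DHL-5 and 117 and 76 in those of Toledo. It had 0 reads in every JQ1 library, as did the short entry PLD4_3, which had 11 and 48 DMSO reads in SU-DHL-5 and Toledo. In Toledo, the 8.76% of PLD4 reads on PLD4_2 with DMSO had an exact interval of 7.61% to 10.0%. With JQ1 it was 0 of 67 reads. Read as up to 3 reads, this allows a share of up to 4.48%, and the exact upper limit was 5.36%. In SU-DHL-5 the 0 of 12 reads allow up to 25% in the same way (exact limit 26.5%), so that a change in the share was not detectable there.

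PLEK had a single entry. For SLA, the entry SLA_5 carried nearly all reads. It starts at 133060358, well inside the gene, while the other 4 entries start at 133103066. Its share with DMSO was 91.4% in SU-DHL-5 (interval 88.1% to 94.0%) and 99.7% in Toledo (interval 98.1% and above). SLA_4, with the upstream start, had 25 and 7 reads with DMSO and 5 and 0 with JQ1 in SU-DHL-5, and 0 reads in all 4 libraries of Toledo. SLA_5 itself had 351 reads with DMSO and 29 with JQ1 in SU-DHL-5, against 295 and 12 in Toledo.

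LAT2 was divided among LAT2_1, LAT2_2 and LAT2_3, which share both ends. In Toledo with DMSO they carried 1587, 796 and 1572 of 3986 reads, and with JQ1 110, 90 and 93 of 294 reads. The share of LAT2_2 was between 18.7% and 21.2% with DMSO, by its exact interval, and between 25.4% and 36.2% with JQ1. Its JQ1 libraries had 60 of 155 and 30 of 139 reads, against 369 of 2033 and 427 of 1953 with DMSO. The higher share with JQ1 thus lay in library 1 alone, and the share in library 2 was like that with DMSO. The pooled interval does not cover this difference between libraries. In SU-DHL-5, 129 of 233 reads with DMSO and 16 of 17 with JQ1 were on LAT2_3. LAT2_1 and LAT2_2 were at 0 with JQ1. Read as up to 3 reads, this allows a share of up to 17.6% each, and the exact upper limit was 19.5%.

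**Figure D4:**
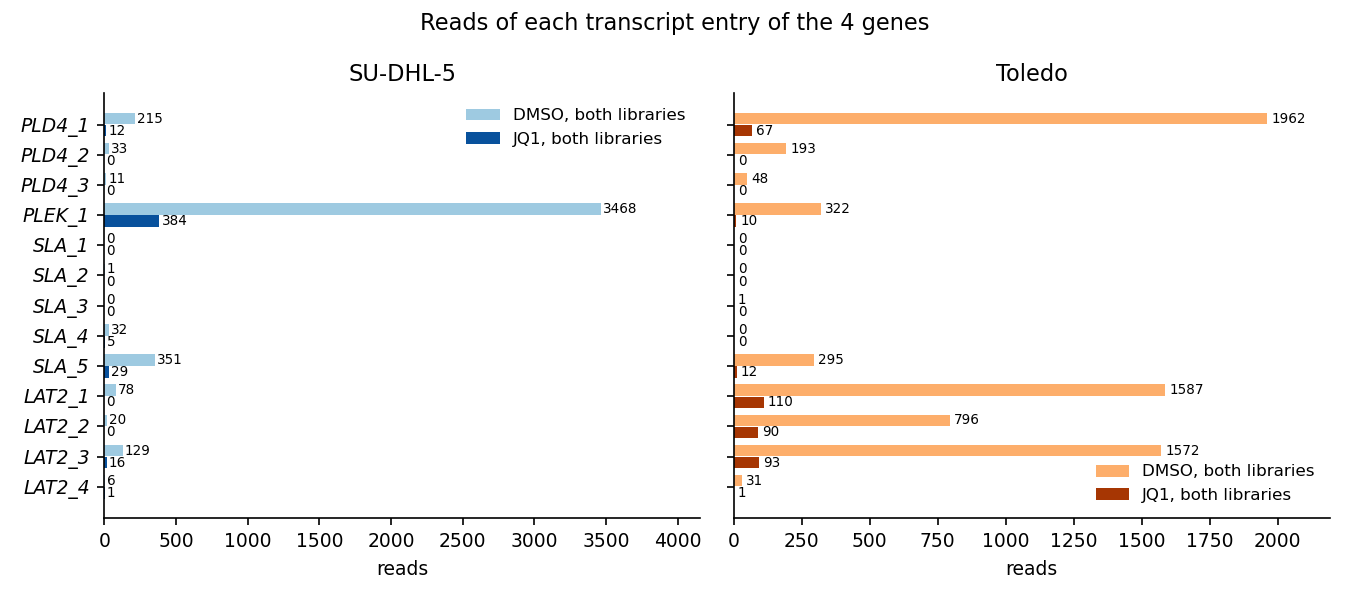
Reads of each transcript entry of the 4 genes, summed over the 2 libraries of a sample, with DMSO and JQ1, for SU-DHL-5 (left) and Toledo (right); the numbers are the reads and the axes differ between panels. PLD4_2 and PLD4_3 are at 0 with JQ1 in both lines, and SLA_5 carries nearly all SLA reads.

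The 3 nearest protein-coding genes on each side of each gene were compared, 24 in all. Of these, 12 entered in SU-DHL-5, where 3 were lower and 0 higher, with a median log2 ratio of -0.093. In Toledo 15 entered and 0 were called in either direction, with a median of -0.038. Over all genes that entered, 6.39% were lower and 1.84% higher in SU-DHL-5, and 8.29% lower and 1.95% higher in Toledo. The neighbours were too few to set against these shares. The neighbours of PLD4 and PLEK were not called in either line. AKT1, the survival kinase upstream of PLD4, was at -0.02 and -0.15, and CDCA4, downstream, was at -0.14 and -0.16. AHNAK2, whose span meets that of PLD4, had 1 read in 8 libraries. Beside PLEK, PPP3R1, the regulatory subunit of calcineurin, was at -0.04 and -0.17, while APLF, a DNA repair factor, was at 0.85 and 0.94. EIF4H, a translation factor beside LAT2, was at 0.02 and -0.03. RFC2, a clamp loader subunit whose span lies 1668 bases beyond that of LAT2, was at -0.29 and -0.44. LIMK1, an actin regulating kinase 2 genes away from LAT2, was lower in SU-DHL-5 at -1.07 and had -0.63 in Toledo.

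At the locus of SLA, 2 neighbours were lower in SU-DHL-5 and none in Toledo. TG encodes thyroglobulin, and SLA lies within it on the opposite strand. TG was at 1.97 and 1.84 RPKM with DMSO and 0.133 and 0.201 RPKM with JQ1 in SU-DHL-5, which gave -2.91 on the log2 scale. In Toledo it had 0 reads with DMSO and 3 with JQ1. The library kit marks strand, but the setting used in counting is not given, so TG and SLA reads cannot be fully told apart in SU-DHL-5. In Toledo the fall of SLA was measured with TG at or near 0. ST3GAL1, a sialyltransferase on the other side, was lower in SU-DHL-5 at -2.27 and had -0.69 in Toledo.

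**Figure D5:**
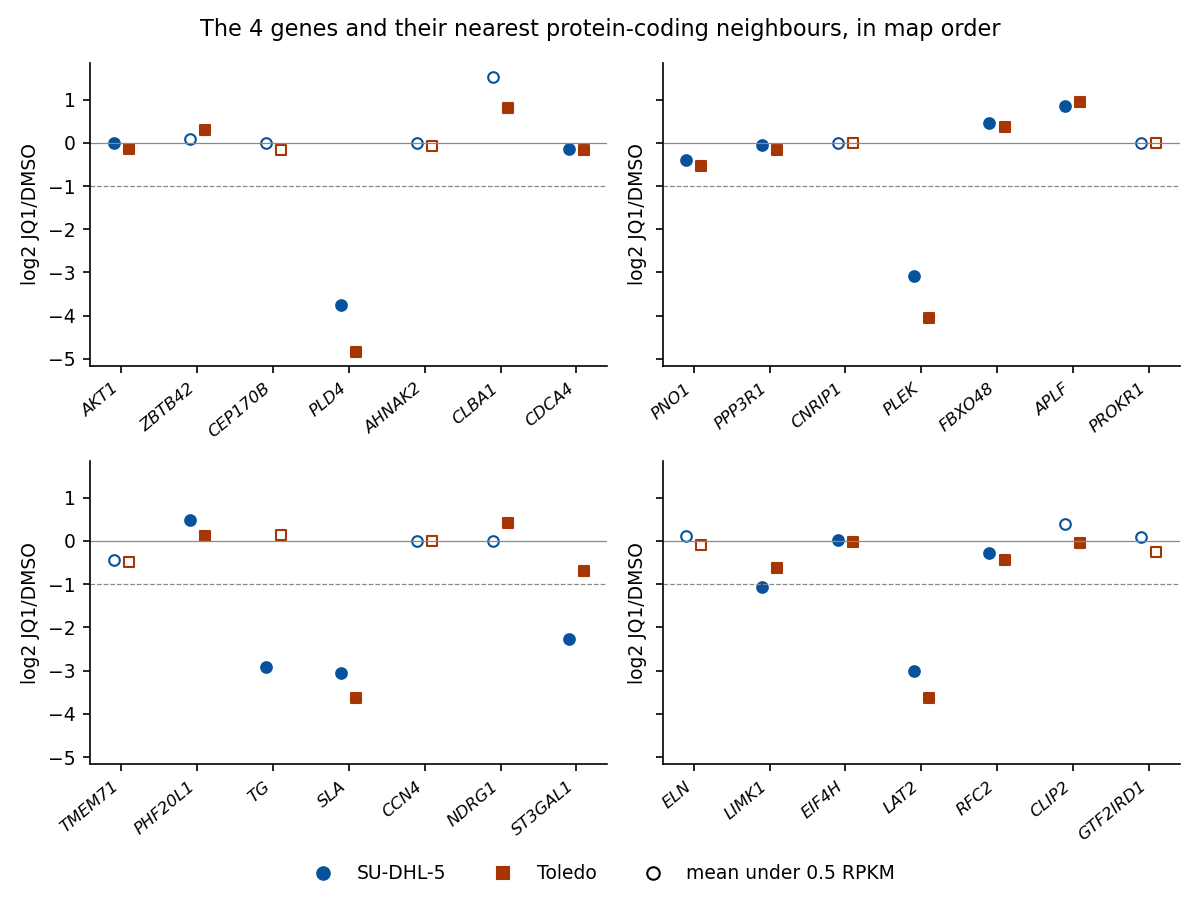
Log2 ratio of JQ1 to DMSO (RPKM + 0.1) for the 4 genes and the 3 nearest protein-coding genes on each side, in map order and not to scale, in SU-DHL-5 (circles) and Toledo (squares). Open symbols are genes with a mean under 0.5 RPKM, the dashed line is a 2-fold fall, and only TG, ST3GAL1 and LIMK1 in SU-DHL-5 fall beyond it among the neighbours that entered.

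Relatives and partners of the 4 proteins were followed by lists. Beside the counts below, the shares over all genes that entered were 6.39% lower and 1.84% higher in SU-DHL-5. In Toledo they were 8.29% lower and 1.95% higher. For PLD4, none of the other family members that entered was called. Of 5 family members, 2 entered in SU-DHL-5 and 3 in Toledo, too few to set against these shares. PLD3, the closest relative and also an endolysosomal exonuclease, went from 10.7 to 17.7 RPKM in one line, SU-DHL-5, and from 6.78 to 13.0 RPKM in Toledo, with log2 ratios of 0.72 and 0.93. PLD2 went from 1.83 to 1.11 RPKM in SU-DHL-5, which is -0.68, and from 0.636 to 0.804 RPKM in Toledo, which is 0.30. PLD6, a mitochondrial member, entered only in Toledo, at -0.69. Of the 20 genes of endolysosomal nucleic acid sensing and digestion, 14 entered in SU-DHL-5, with 4 lower and 1 higher and a median of -0.59. In Toledo 15 entered, with 3 lower and 1 higher and a median of -0.52. IRF5, a transcription factor downstream of Toll-like receptors, was lower in both lines, at -2.39 and -1.47. CTSS, the protease cathepsin S, was lower in both, at -1.59 and -1.91. IRF7, the interferon inducing factor, was higher in both, with 3.25 RPKM becoming 12.1 RPKM in SU-DHL-5 and 12.1 RPKM becoming 36.8 RPKM in Toledo. The remaining calls, named after their values were seen, were CXorf21 and MYD88, lower in SU-DHL-5, and TLR7, lower in Toledo.

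For PLEK, 16 genes of pleckstrin and protein kinase C biology were followed, and none of those that entered was called. With so few genes, this cannot be told apart from the all-gene shares of 6.39% and 8.29% lower. Below the entry level, PRKCH was at -1.89 and -1.51 and CYTH4 at -1.57 and -1.27, with group means of at most 0.738 RPKM. Both were named after their values were seen, and no gene below that level had a ratio above 0. 8 entered in SU-DHL-5, with a median log2 ratio of 0.17, and 9 in Toledo, with a median of 0.16. The only other pleckstrin, PLEK2, was listed at 0 in all 8 libraries.

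For SLA, 14 genes of its close relative SLA2, CBL ligases and Src or Syk family kinases were followed, and SLA2 did not enter in either line. Of 10 that entered in SU-DHL-5, 3 were lower and 0 higher, with a median of -0.070, and of 9 in Toledo 3 were lower and 0 higher, with a median of -0.11. LCK, a Src family kinase, was lower in SU-DHL-5 and in Toledo. Its level went from 19.4 to 1.38 RPKM in the former line and from 1.91 to 0.271 RPKM in the latter. FGR was also lower in SU-DHL-5, at -3.53, and BLK in Toledo, at -2.49, which had -0.03 in SU-DHL-5. Both were named after their values were seen. CBL itself was at -0.03 and -0.11.

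For LAT2, the 6 other transmembrane adaptors gave 4 that entered in each line, of which 2 were lower in SU-DHL-5 and 3 in Toledo, with medians of -0.74 and -1.49. SIT1, which binds tyrosine phosphatases in lymphocytes, was lower in both, from 36.4 to 6.79 RPKM and from 67.7 to 25.1 RPKM. LAX1 was lower in SU-DHL-5, at -1.38, and LAT and LIME1 in Toledo, at -1.58 and -1.55. PAG1, which recruits the kinase CSK to the membrane, had 0.58 and 0.54. Of 20 genes of proximal antigen receptor signaling, 17 entered in SU-DHL-5, with 6 lower and 0 higher and a median of -0.61. In Toledo 19 entered, with 4 lower and 0 higher and a median of -0.75. The adaptor BLNK was lower in both, at -1.45 and -1.92. So were BANK1, a B cell scaffold, at -1.48 and -1.63, and PTPN6, the tyrosine phosphatase SHP-1, at -1.97 and -2.58. BTK and INPP5D were lower in SU-DHL-5 only by the rule, at -1.26 and -1.10, and had -0.98 and -0.75 in Toledo.

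Among 9521 genes with a mean of at least 1 RPKM over the 8 libraries, those with the nearest profile to each gene were found by the distance of log2 levels centred per gene. These profiles hold both the difference between lines and that with JQ1, and the libraries of a sample are not independent. Nearest to PLD4 were TNFRSF17, the plasma cell receptor BCMA, at a distance of 1.77, then AOX1, IFITM1, CD80 and SASH3. LAT2 was in the sixth place. Nearest to LAT2 was VPREB3, at a distance of 0.60, which is also next to it in the ranking, then IFITM1, RASGRP2, AOX1 and PLAC8. PLD4 was in place 11. Nearest to SLA were SAMD10, at 0.56, and CD84, a SLAM family receptor, at 0.79, then SH3TC1, VAMP8 and PVRIG. Nearest to PLEK were PTPN7, a tyrosine phosphatase, at 1.53, then HLA-DOB, C7orf72, LSP1 and MGAT3. None of the 4 genes was among the 5 nearest profiles of another of them.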

How the data were processed

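RNA of 4 samples was sequenced by the authors from stranded mRNA libraries, as paired, trimmed reads. For each of 2 libraries per sample, gene and transcript levels were deposited by the authors as RPKM, normalized for feature length and mapped reads. The submitters' processing notes name CASAVA 2.0 and GRCh38; the aligner, the counting and the annotation are not given in the sources used here. Mapped reads per library were recovered as the total that made values of single-exon features whole reads (tolerance 0.02), and feature lengths likewise from 100 to 40000 bases. Whole reads resulted for 14942 of 14944 genes with a value. The recovery and the calls were tested on simulated data. No count model was fitted, with n = 1 per condition in each line and genes chosen on both. Intervals are exact binomial 95% intervals of reads and cover counting error only, and a count of 0 was read as up to 3 reads. Table starts were counted from 0 and were raised by 1. Gene positions were compared with GENCODE 29, where 29298 of 29361 shared symbols overlapped. Of the 4 genes, 2 matched the RefSeq promoter table.

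The 4 genes and all lists were chosen with earlier results of these data known. Named genes were the 4 genes, those around the fifth place of the ranking, the 5 nearest profiles, the 3 nearest protein-coding genes per side, and list genes called in both lines or, in lists of up to 6 genes, with a mean of at least 1 RPKM. Some list genes are counted but not reported here by name. Alternatives were the pseudocount, scaling by the median ratio, summed transcripts, each library alone and the filter. Scripts ran in Python 3.11.15 with scipy 1.17.1, pandas 2.3.3 and numpy 2.4.6, and figures were drawn with matplotlib 3.10.9.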

Additional observations from a re-analysis of the deposited data

How the results depend on the processing

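Of 116 recomputed values of 16 results, 95 moved by less than their interval or, for counts, by less than 1.5 times, and none changed sign. All 56 recomputed log2 ratios of JQ1 to DMSO of the 4 genes were at or below -1. A pseudocount of 1 RPKM in place of 0.1 moved them in SU-DHL-5 to -1.92 for PLD4, -2.84 for PLEK, -1.71 for SLA and -1.34 for LAT2. In Toledo it moved them to -3.93, -1.97, -1.63 and -3.24. It moved the log2 ratio of Toledo to SU-DHL-5 with DMSO to 2.68 for PLD4, -3.14 for PLEK and 3.48 for LAT2. It changed the genes called lower from 622 to 350 for SU-DHL-5 and from 839 to 470 for Toledo, and those called higher from 179 to 81 and from 197 to 87. Without a filter on low values, 965 and 1291 genes were called lower. With a mean of at least 2 RPKM, 365 and 471 were called lower and 115 and 122 higher. Ratios of reads without a pseudocount, and counts of calls from each library alone, were chosen after seeing the data.

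With 1 sample per condition in each line, no test was made. The JQ1 values of PLEK and SLA in Toledo and of PLD4 and LAT2 in SU-DHL-5 rest on 10, 12, 12 and 17 reads. The intervals given cover the counting error of these reads only. They leave out the spread between cultures, which was not measured, and the choice of the genes by the size of their falls. Within a line no paired analysis was possible, because each group had 1 sample and groups shared fewer than 2 replicate numbers. A fit over both lines with the line as the pair was not run.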
